A study of Mus musculus with 16 samples.

Results

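The genes described here are 10 feedback inhibitors of signalling that are known or proposed to be driven by cAMP response elements (CREs): Sik1, Gem, Dusp1, Dusp4, Dusp5, Dusp6, Rgs2, Rgs4, Pde4b and Pde4d. They were chosen by gene symbol in the platform annotation, out of 18193 genes that have a probe set of 1 symbol on the array. Together they have 22 probe sets. Hippocampal RNA was measured on 16 Affymetrix mouse arrays, each holding RNA pooled from 3 to 4 mice of the same age, sex and genotype. At 3 weeks off doxycycline (dox) there were 3 pools of tetO-VP16-CREB mice and 3 pools of WT control littermates, at 6 weeks of age. At 1 week off dox there were 2 pools of tetO-VP16-CREB mice and 2 pools of WT control littermates, at 3 weeks of age. The A-CREB cohort, taken from an earlier data set per the series design, had 3 pools of TetO-A-CREB-95 mice and 3 pools of WT control littermates, at 6 weeks of age, and was raised without dox. All mice of the VP16-CREB cohorts, controls included, were raised with dox until its removal, and the strain was C57BL/6J throughout. The series design calls the induced mice bitransgenic, and the promoter of the second transgene is not given in the sources used here. Pools are the replicates, so the spread between animals within a pool is not seen.

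CREB is a transcription factor that binds CREs when kinases activated by cAMP and calcium phosphorylate it. VP16-CREB carries a viral activation domain and activates its targets without that signal, whereas A-CREB pairs with CREB and keeps it from DNA. Several targets of CREB encode proteins that dampen the signals that activated it. SIK1 phosphorylates the CRTC coactivators of CREB and keeps them in the cytoplasm, and GEM lowers calcium entry through voltage-gated channels. The DUSP proteins remove phosphates from MAP kinases, the RGS proteins shorten signalling by G proteins, and the PDE4 enzymes break down cAMP.

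Values are the authors' MAS5 intensities on a linear scale. Differences are on the scale of log2(intensity + 10), transgenic minus control littermates, from a limma fit over all 16 arrays, and a probe set was called at a Benjamini-Hochberg adjusted p under 0.05 over the 27044 probe sets that passed a filter on low values. The filter kept probe sets above 99.1, the median of all values, on at least 2 arrays. Of the 22 probe sets of the 10 genes, 18 passed, at least 1 for each gene. The other 4 stayed low on every array: the second Sik1 probe set ranged from 1.49 to 26.3, and 3 of the 6 Pde4b probe sets from 6.66 to 56.8, from 0.935 to 47.1 and from 0.247 to 15.02. Array medians lay between 118.9 and 129.3 for the 3 week VP16-CREB cohort (6 arrays) but between 75.0 and 93.2 for the remaining 10 arrays, so levels are mainly compared within cohorts. All 4 pyramidal and all 4 dentate granule neuron markers passed the filter, with lowest gene means over the arrays of 2060 and 241. The 4 markers of striatum and thalamus summed to between 1141 and 1853. These values do not measure how pure the dissection was.

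Across the 3 transgene comparisons, 1 of the 18 probe sets was called in 1 comparison, that of Gem in VP16-CREB mice at 3 weeks off dox. That is 5.56% of the members' probe sets, where 3.93% of all probe sets were called (3.28% higher and 0.651% lower). None was called at 1 week off dox, where 64 of all 27044 probe sets were called (0.237%, with 0.218% higher and 0.0185% lower), or in A-CREB mice, where no probe set was called (0%). At an unadjusted p under 0.05, limma gave 2 of 18 probe sets (11.1%) at 3 weeks against 13.5% of all, 2 of 18 (11.1%) at 1 week against 5.27% of all, and 1 of 18 (5.56%) in A-CREB mice against 4.33% of all (1171 probe sets). The median log2 difference of the 18 probe sets was 0.12 at 3 weeks, 0.04 at 1 week and -0.03 in A-CREB mice, against -0.01, 0.02 and 0.00 over all probe sets. Their median absolute log2 difference was 0.22, 0.18 and 0.21, against 0.19, 0.17 and 0.15 over all, and values given in threes below keep this order of comparisons. The 95% intervals are not adjusted for the number of probe sets.

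**Figure D1:**
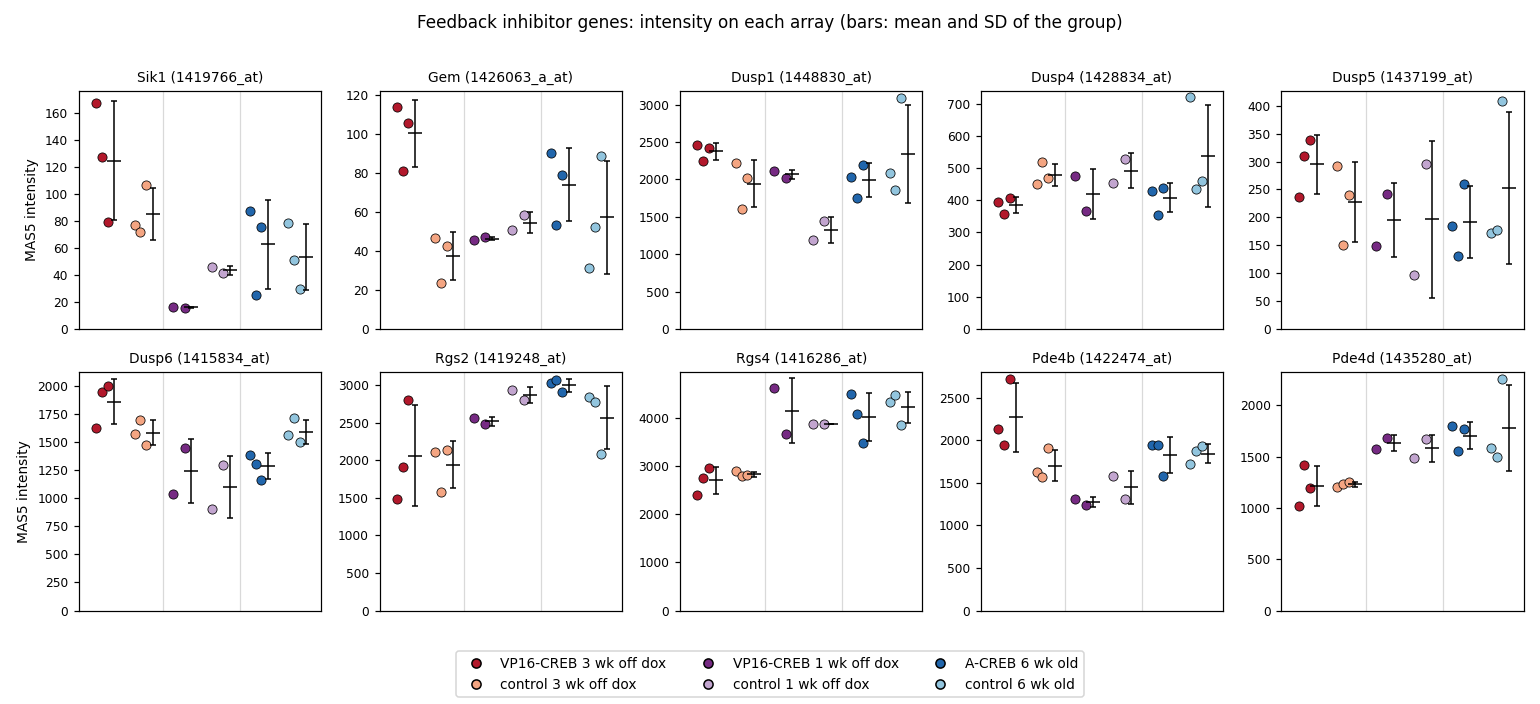
MAS5 intensity (linear axis from 0) of the 10 feedback inhibitor genes on each of the 16 arrays, each gene shown by its brightest probe set. Points are single pools, coloured by group with each transgenic group left of its control littermates, and bars give the mean and SD of the group. The 3 VP16-CREB pools at 3 weeks off dox lie at 81.3 to 114 for Gem, above their controls at 23.4 to 46.7, while in most other panels the pools of both groups mix.

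Gem encodes a small GTPase of the RGK family, which binds the beta subunits of voltage-gated calcium channels. The gene lies on chromosome 4 at 11704447 to 11714993 (GRCm38). At 3 weeks off dox its probe set read 114, 81.3 and 106 in VP16-CREB pools, against 46.7, 23.4 and 42.4 in control pools. All 3 transgenic pools were above all 3 controls. The mean was 100.5 ± 17.2 in VP16-CREB pools and 37.5 ± 12.4 in controls (SD, n = 3 each). On the log2(intensity + 10) scale the difference was 1.24 (SE 0.29, 2.37-fold on that scale, limma adjusted p = 0.0283). The Gem probe set exceeded the filter's median on 2 arrays, both of them VP16-CREB pools at 3 weeks, so it was tested only because it was high in that group, and its call lends the gene list no support. The call was lost with no filter (adjusted p = 0.0666), with quantile normalization (0.0523), with arrays centred on their medians (0.0505) and with trended, robust variances (0.0589). It was also lost without VP16-CREB replicate 1 or 3 (adjusted p = 0.103 and 0.115) and without control replicate 2 or 3 (0.138 and 0.0592), and the log2 difference ran from 1.01 to 1.47 over 14 alternative settings.

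Gem was not called in the other cohorts. At 1 week off dox it read 45.9 and 47.1 in VP16-CREB pools, against 50.8 and 58.5 in controls, so both transgenic pools were the lower ones (log2 -0.19, 95% interval -0.96 to 0.58, adjusted p = 1). In A-CREB pools it read 90.3, 53.3 and 79.0, against 31.3, 52.2 and 88.85 in controls (log2 0.38, 95% interval -0.24 to 1.01, adjusted p = 1). The groups overlapped in the A-CREB cohort. The effect of VP16-CREB at 3 weeks exceeded that at 1 week by 1.43 log2 (SE 0.46) and the A-CREB effect by 0.86 (SE 0.41), with adjusted p of 0.66 and 0.601, so neither difference between effects was called.

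Sik1 encodes salt-inducible kinase 1 and lies on chromosome 17 at 31844248 to 31855804. It exceeded the median of the filter on 3 arrays, of which 2 were VP16-CREB pools at 3 weeks. At 3 weeks off dox it read 168, 127 and 79.2 in VP16-CREB pools, against 76.9, 71.9 and 107 in controls, and the groups overlapped (log2 0.46, SE 0.38, adjusted p = 0.722). At 1 week it read 16.2 and 15.8 in VP16-CREB pools, against 45.8 and 41.3 in controls. Both transgenic pools were below both controls, at intensities under the array medians (log2 -1.04, 95% interval -2.03 to -0.05, adjusted p = 0.888). In A-CREB pools it read 87.6, 25.1 and 75.45, against 78.9, 51.4 and 29.7 in controls, with overlapping groups (log2 0.14, SE 0.38, adjusted p = 1). The difference between the VP16-CREB effects at 3 weeks and 1 week was 1.5 log2 (95% interval 0.22 to 2.78, adjusted p = 0.862).

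Among the phosphatases, Dusp1 encodes a nuclear enzyme that acts on several MAP kinases and is a textbook immediate early gene. Among the 7 members with a promoter sequence here, its promoter was the only one with a full CRE. A link between this motif and the values was not tested. At 1 week off dox Dusp1 read 2112 and 2024 in VP16-CREB pools, against 1197 and 1448 in controls. At 3 weeks it read 2466, 2252 and 2423 in VP16-CREB pools, against 2214, 1599 and 2018 in controls. At both times every VP16-CREB pool was above every control, by a log2 difference of 0.65 at 1 week (95% interval 0.14 to 1.15, adjusted p = 0.641) and of 0.30 at 3 weeks (95% interval -0.11 to 0.71, adjusted p = 0.585), and neither was called. In A-CREB pools Dusp1 read 2034, 1750 and 2196, against 2088, 1859 and 3089 in controls, with overlapping groups (log2 -0.20, 95% interval -0.62 to 0.21, adjusted p = 1).

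The other 3 phosphatase genes were not called in any comparison. Dusp4, a nuclear phosphatase gene on chromosome 8, read 394, 358 and 406 in VP16-CREB pools at 3 weeks, against 452, 517 and 469 in controls. All transgenic pools were below all controls (log2 -0.31, 95% interval -0.71 to 0.10, adjusted p = 0.572). In A-CREB pools Dusp4 read 430, 356 and 436.5, against 721, 434 and 460 in controls, where the groups overlapped and control replicate 1 stood highest (log2 -0.36, adjusted p = 1). Dusp6 encodes a cytoplasmic phosphatase of ERK. It read 1390, 1306 and 1167 in A-CREB pools, against 1565, 1715 and 1503 in controls. Every A-CREB pool was below every control, by a log2 difference of -0.31 (95% interval -0.67 to 0.06, adjusted p = 1). In VP16-CREB pools at 3 weeks Dusp6 read 1630, 1947 and 2006, against 1576, 1701 and 1477 in controls, and the groups overlapped (log2 0.23, adjusted p = 0.687). The VP16-CREB effect at 3 weeks and the A-CREB effect on Dusp6 differed by 0.54 log2 (95% interval 0.02 to 1.05, adjusted p = 0.552). Dusp5, which encodes a nuclear phosphatase of ERK, had overlapping groups in all 3 comparisons and varied more between pools, from 96.7 to 409 over the 16 arrays. Its log2 differences were 0.39, 0.15 and -0.31 with SE of 0.42, 0.51 and 0.42.

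The promoters of the members are shown for the CRE, the site through which CREB and its derivatives would act on them. RefSeq windows (GRCm38.p6) reach from 250 bases before to 50 after each start in the promoter set used, which need not hold every start. Of the 10 genes 7 matched, with 10 windows in all, of which Pde4b has 4 and Pde4d 1. The Pde4b gene begins at 102087332, but its first window lies at 102421305 to 102421604, so the beginning of the gene was not searched. Sik1, Gem and Dusp4 were not matched. The motifs searched were the full CRE TGACGTCA, which reads the same on both strands, and the core site TGACG on either strand (CGTCA on the reverse one), counted only where it lay outside a full CRE. A full CRE was in 1 of the 10 windows, that of Dusp1, against 1.79% of all 32851 windows. A core site or a full CRE was in 5 of the 10, against 20.8% of all. The members were chosen as genes known or proposed to be driven by CREs, so these shares are no test of that. Pde4b counts 4 times among the 10 windows. Dusp1 is shown with its full CRE at -143 to -136 and a core site at -191 to -187, Rgs2 and Rgs4 each with 2 core sites (3.32% of all windows hold at least 2), and Dusp6 as a window with neither. Positions count from the start, with the base before it at -1, and capitals mark the motifs.
Dusp1 promoter, chr17:26508423-26508722, minus strand: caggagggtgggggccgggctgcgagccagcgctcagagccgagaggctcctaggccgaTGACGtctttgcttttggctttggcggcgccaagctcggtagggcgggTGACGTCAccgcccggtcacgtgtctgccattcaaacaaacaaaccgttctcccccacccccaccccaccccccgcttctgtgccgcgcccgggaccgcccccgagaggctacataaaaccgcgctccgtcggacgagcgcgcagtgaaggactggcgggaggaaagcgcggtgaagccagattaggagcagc
Rgs2 promoter, chr1:144004100-144004399, minus strand: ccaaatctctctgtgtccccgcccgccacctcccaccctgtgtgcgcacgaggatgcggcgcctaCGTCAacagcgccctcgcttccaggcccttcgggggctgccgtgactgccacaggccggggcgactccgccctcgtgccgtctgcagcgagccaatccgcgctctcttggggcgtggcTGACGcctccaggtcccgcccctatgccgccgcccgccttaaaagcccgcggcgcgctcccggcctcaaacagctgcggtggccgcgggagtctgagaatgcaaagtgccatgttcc
Rgs4 promoter, chr1:169747593-169747892, minus strand: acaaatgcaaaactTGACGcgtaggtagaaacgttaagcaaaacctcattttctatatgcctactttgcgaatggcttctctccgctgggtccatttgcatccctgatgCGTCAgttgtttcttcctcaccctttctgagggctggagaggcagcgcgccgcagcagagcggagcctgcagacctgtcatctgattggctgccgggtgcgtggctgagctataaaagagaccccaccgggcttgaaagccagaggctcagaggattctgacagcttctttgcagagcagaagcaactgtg
Dusp6 promoter, chr10:99262981-99263280, plus strand: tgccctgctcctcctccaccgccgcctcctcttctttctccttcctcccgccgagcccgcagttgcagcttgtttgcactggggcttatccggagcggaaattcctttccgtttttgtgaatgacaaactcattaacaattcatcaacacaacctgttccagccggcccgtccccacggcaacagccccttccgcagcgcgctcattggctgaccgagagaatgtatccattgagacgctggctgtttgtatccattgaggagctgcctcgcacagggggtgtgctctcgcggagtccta
A match is a description of the letters and not a measured binding site. Dusp5 held 1 core site at -55 to -51 and the first Pde4b window 1 at -34 to -30, and the Pde4d window and the other 3 of Pde4b held neither motif.

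Rgs2 and Rgs4 encode proteins that speed the return of G protein alpha subunits to their inactive state, RGS2 acting mainly on Gq. Rgs4 lies on chromosome 1 at 169741477 to 169747642. At the probe set of highest mean it read 2406, 2755 and 2950 in VP16-CREB pools at 3 weeks, against 2886, 2793 and 2807 in controls. It read 4628 and 3673 in VP16-CREB pools at 1 week, against 3867 and 3866 in controls, and 4490, 4077 and 3487 in A-CREB pools, against 4325, 4475 and 3860 in controls. At this probe set the groups overlapped in all 3 comparisons. The log2 differences were -0.07, 0.09 and -0.08, with 95% intervals of -0.38 to 0.24, -0.29 to 0.47 and -0.38 to 0.23, so changes of 2-fold lie outside all 3 intervals. The next Rgs4 probe set, 1416287_at, gave -0.13, 0.07 and -0.21. There every VP16-CREB pool was below every control at 3 weeks (1233, 1426 and 1432 against 1578, 1441 and 1457). At 1 week both were above both controls (2293 and 2213 against 2125 and 2155), and neither difference was called. The third, 1448285_at, was far more variable between pools, with SE of 0.43, 0.53 and 0.43. At 1 week it read 1589 and 1789 in VP16-CREB pools, above both controls at 1380 and 1307 (log2 0.33, not called).

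Rgs2 (chromosome 1, 143999338 to 144004149) was measured by 4 probe sets, none of them called. At 1419248_at, that of highest mean, it read 1480, 1904 and 2798 in VP16-CREB pools at 3 weeks, against 2103, 1578 and 2141 in controls, with overlapping groups (log2 0.05, SE 0.21). In A-CREB pools it read 3026, 3066 and 2901, against 2838, 2767 and 2084 in controls. There every A-CREB pool was above every control, as at 1419247_at (1683, 1737 and 1679 in A-CREB pools against 1629, 1641 and 1542 in controls). The log2 differences were 0.24 (95% interval -0.22 to 0.69) and 0.08 (95% interval -0.33 to 0.50), with adjusted p of 1 for both, and without both arrays numbered 3 the differences were 0.12 and 0.06. The other bright probe set, 1447830_s_at, overlapped between the groups, at 2411, 2376 and 2525 in A-CREB pools against 2662, 1995 and 1747 in controls (log2 0.21), and 1443250_at gave -0.16. At 1 week off dox 1419248_at read 2557 and 2475 in VP16-CREB pools, against 2937 and 2796 in controls, both transgenic pools below both controls (log2 -0.19, 95% interval -0.74 to 0.37). There 1443250_at ran the other way, at 78.07 and 99.14 in VP16-CREB pools against 73.23 and 74.23 in controls (log2 0.23, 95% interval -1.34 to 1.79). The dim probe set 1443250_at lay between 10.97 and 122 over the arrays, and its SE was 0.59 to 0.73.

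**Figure D2:**
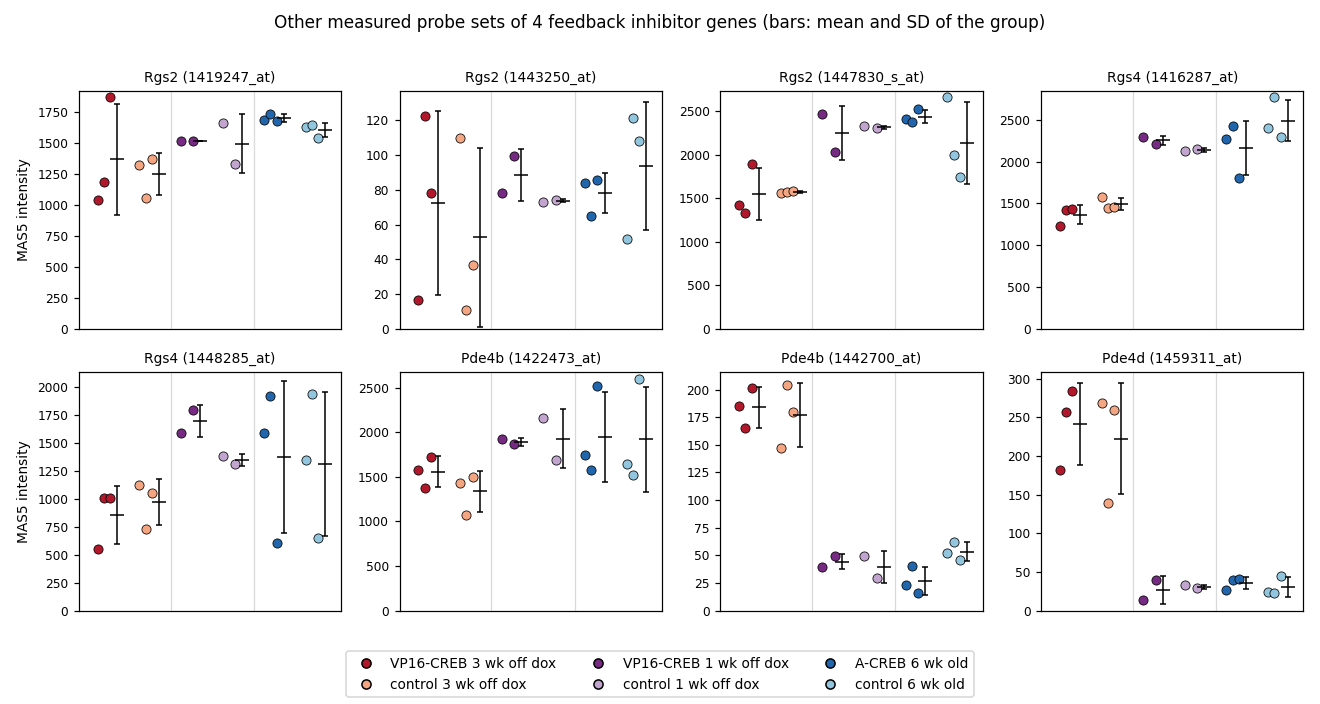
MAS5 intensity (linear axis from 0) on each array for the 8 other measured probe sets of Rgs2, Rgs4, Pde4b and Pde4d, with points as single pools, each transgenic group left of its control littermates, and bars for the mean and SD of the group. Pde4b 1442700_at and Pde4d 1459311_at are high throughout the 3 week cohort and low elsewhere, and Rgs4 1448285_at is low in replicate 3 of both groups of the A-CREB cohort (606 and 652).

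Pde4b and Pde4d encode cAMP-specific phosphodiesterases of long, multi-promoter genes on chromosome 4 (102087332 to 102607275) and chromosome 13 (108654177 to 109955969). Pde4b at 1422474_at read 2140, 1945 and 2726 in VP16-CREB pools at 3 weeks, against 1623, 1574 and 1908 in controls. All transgenic pools were above all controls (log2 0.40, 95% interval 0.06 to 0.75), but the adjusted p was 0.248. The second bright Pde4b probe set, 1422473_at, read 1570, 1379 and 1723 in VP16-CREB pools, against 1435, 1072 and 1501 in controls, with overlapping groups (log2 0.23, adjusted p = 0.8). At 1 week off dox the 2 probe sets differed by -0.18 and -0.02 log2, and in A-CREB mice by -0.02 and 0.03. The third measured probe set, 1442700_at, read 23.5, 40.6 and 15.8 in A-CREB pools, against 52.1, 62.1 and 45.4 in controls. Every A-CREB pool was below every control, at intensities under the array medians (log2 -0.83, 95% interval -1.35 to -0.32, adjusted p = 0.859). Pde4d at 1435280_at read 1022, 1416 and 1199 in VP16-CREB pools at 3 weeks, against 1205, 1229 and 1254 in controls. Its groups overlapped in all 3 comparisons, with log2 differences of -0.03, 0.05 and -0.04 and SE of 0.17, 0.21 and 0.17.

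Some of these probe sets read apart between cohorts. The share of all probe sets that did so was not counted, so this is not shown to be particular to the members. Pde4b 1442700_at lay between 147 and 205 throughout the 3 week VP16-CREB cohort and between 15.8 and 62.1 elsewhere. Pde4d 1459311_at lay between 139.5 and 284 in that cohort and between 13.5 and 44.9 elsewhere. The brighter Pde4d probe set ran the other way, at 1022 to 1416 in that cohort and 1489 to 2260 elsewhere. Rgs4 was also lower there, at 2406 to 2950 in that cohort and 3487 to 4628 elsewhere. Its second probe set read 1233 to 1578 in that cohort and 1804 to 2769 elsewhere. That cohort was 6 weeks old, as was the A-CREB cohort, whereas the cohort at 1 week off dox was 3 weeks old. Cohort, dox history and array processing cannot be told apart, and the cause of the split was not tested.

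Within the A-CREB cohort, replicate 3 of both groups stood apart for several members. These 2 arrays had 18S rRNA signals of 3288 (A-CREB) and 1735 (control), against 234 to 542 on the other 4. Their ratios of 3' to 5' actin were 2.48 (A-CREB) and 1.65 (control), against 1.37 to 1.98 on the other 4, so the control array did not stand apart on this measure. Rgs4 at 1448285_at read 606 in the A-CREB pool and 652 in the control pool, against 1345 to 1932 in the other 4 pools. Pde4b at 1422473_at read 2517 and 2595 there, against 1518 to 1744 in the other 4. Without both arrays the A-CREB comparison still called none of the 18 probe sets, with log2 differences of 0.11 for Rgs4 1448285_at, 0.07 for Pde4b 1422473_at, -0.06 for Dusp1 and -0.15 for Dusp5. In that setting Sik1 gave -0.34 (0.14 with all arrays), Gem 0.65 (0.38) and Dusp4 -0.51 (-0.36). Replicate 1 of both groups in that cohort had low Xist signal (63.4 and 34.5), as in males, and without both of these arrays none was called either. In that setting Gem gave -0.06 and Dusp4 -0.18, so the Gem difference of 0.38 in A-CREB mice rests on this pair of arrays.

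**Figure D3:**
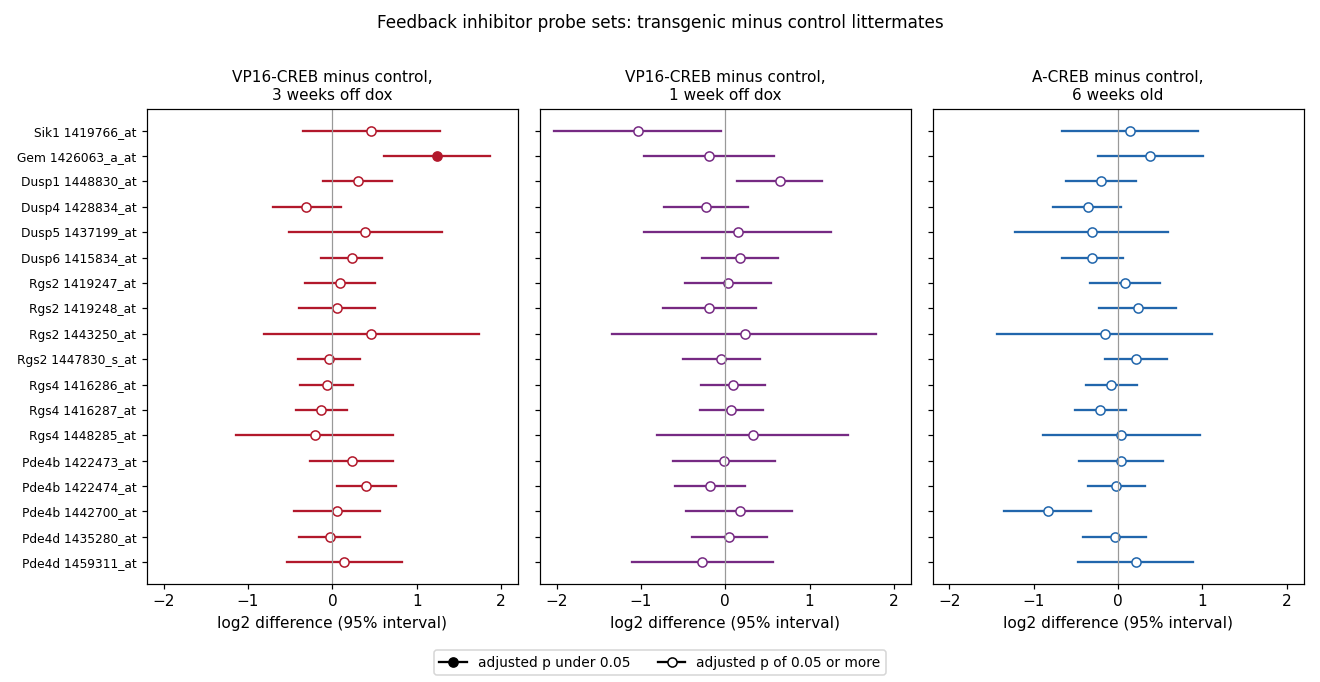
Log2 difference (point) and 95% interval (line) of the 18 measured probe sets for VP16-CREB minus control littermates at 3 weeks and at 1 week off dox and for A-CREB minus control littermates, on the log2(intensity + 10) scale. Filled points passed an adjusted p under 0.05, which only Gem at 3 weeks did (1.24), and 16, 16 and 17 of the 18 intervals span 0.

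Over all 18 probe sets, groups that did not overlap were counted in each comparison beside the share among all probe sets. At 3 weeks off dox 5 of 18 (27.8%) did not overlap, 3 higher and 2 lower, against 27.6% of all (14.9% higher and 12.8% lower). At 1 week 7 of 18 (38.9%) did not, 4 higher and 3 lower, against 28.6% of all (15.7% higher and 12.9% lower). In A-CREB mice 4 of 18 (22.2%) did not, 2 higher and 2 lower, against 6.82% of all (3.54% higher and 3.28% lower), and the 2 higher ones are both probe sets of Rgs2. How small a change could have been called depends on the spread of each probe set. At 3 weeks the least log2 difference that would have reached the largest called p ran from 0.54 for Rgs4 1416287_at to 2.28 for Rgs2 1443250_at, and at 1 week from 0.92 to 3.89. The 95% interval lay within a 2-fold change in either direction for 13, 12 and 14 of the 18 probe sets at 3 weeks, at 1 week and in A-CREB mice. The median SE was 0.20, 0.25 and 0.20 for the members' probe sets, against 0.22, 0.27 and 0.22 over all. The 2 differences between effects called no member, with adjusted p of 0.66 or more between 3 weeks and 1 week (1 call over all probe sets, 0.0037%) and of 0.387 or more between VP16-CREB at 3 weeks and A-CREB (240 calls, 0.887%). At an unadjusted p under 0.05 these contrasts gave 3 of 18 (16.7%, against 4.99% of all) and 2 of 18 (11.1%, against 8.69% of all). These contrasts share the 3 week arrays. The 3 were probe sets of Gem, Sik1 and Pde4b (1422474_at). Gem passed the filter on 2 arrays, both VP16-CREB pools at 3 weeks, and Sik1 on 3, of which 2 were such pools. The share of 3 of 18 therefore lends the gene list no support.

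The other genes of these pathways were taken from 9 lists of relatives, regulators and targets, with 1 probe set per gene, that of highest mean. Of 103 listed genes 97 were measured and 92 passed the filter. At 3 weeks off dox 4 rose and 2 fell, which is 6.52% of the 92, where 5.46% of 12723 genes were called (4.6% higher and 0.865% lower). The medians of the 9 lists ran from -0.26 to 0.24 log2, against 0 over all genes. At 1 week and in A-CREB mice limma called 0 of the 92, against 0.307% (0.299% higher and 0.00786% lower) and 0% of all genes. Adcy7, an adenylyl cyclase gene known from immune cells, rose to 364 ± 38.6 in VP16-CREB pools, against 115 ± 29.5 in controls (log2 1.61, SE 0.20, adjusted p = 0.000319). Adcy1, the calcium-stimulated cyclase gene of neurons, fell to 6090 ± 1440 in VP16-CREB pools, against 12100 ± 2570 in controls (log2 -0.99, SE 0.21, adjusted p = 0.0157). Together they were 2 of 17 cyclase and protein kinase A genes, and the other 15 did not pass the test. Rgs10, which encodes an RGS protein abundant in microglia, was the only 1 of 14 other RGS genes called (2820 ± 237 in VP16-CREB pools and 1570 ± 180 in controls, log2 0.84, adjusted p = 0.0131).

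Pde3b was the only 1 of 11 other phosphodiesterase genes called, and Plcb3, a phospholipase C gene downstream of Gq, the only 1 of 11 genes for G proteins and phospholipase C. Pde3b rose to 837 ± 91.9 in VP16-CREB pools, against 506 ± 14.5 in controls (log2 0.71, adjusted p = 0.0444), and Plcb3 to 97.5 ± 14.9 in VP16-CREB pools, against 13.4 ± 6.25 in controls (log2 2.23, adjusted p = 0.029). Plcb3 controls of the other cohorts averaged 122 (1 week) and 99.4 (A-CREB), so its 3 week controls were the low group of the series. These controls lay far below the filter, and the size of the Plcb3 difference depends on the pseudocount (log2 1.68 with 25 and 3 with none). Crtc1, whose product is a coactivator restrained by SIK kinases, fell to 1030 ± 145 in VP16-CREB pools, against 1680 ± 210 in controls (log2 -0.70, adjusted p = 0.0467), and the other 5 genes of its list did not pass the test. No gene was called among 8 other DUSP genes (Dusp3 0.14 and Dusp14 0.09 log2) or 4 genes of RGK GTPases and calcium channel beta subunits (Cacnb4 -0.17, Cacnb2 -0.35). None was called among 8 genes of Sprouty, Spred and Mig6 proteins (Spred2 -0.14, Errfi1 0.11) or 13 of MAP kinases and their kinases (Mapk10 -0.22, Map2k1 -0.25). The genes named are those of highest mean. These lists ran from -0.3 to 0.48, -0.36 to 0.66, -0.14 to 0.68 and -0.25 to 0.41 log2, in this order. The 0.68 was that of Spry4 (limma adjusted p = 0.163), whose list had a median of 0.24. Among the relatives of Gem, chosen for mention after their values were seen, Rem2 averaged 961 ± 218 in VP16-CREB pools and 598 ± 76.7 in controls, without overlap (log2 0.66, adjusted p = 0.137). Rrad, which did not pass the filter and was not tested, averaged 66.3 ± 14 in VP16-CREB pools and 7.73 ± 3.64 in controls, also without overlap. The Rrad controls lay far below the filter. At 3 weeks 14.9% of all probe sets were higher without overlap, and the other tested Rem2 probe set was not called. The values of Rem2 and Rrad lend the call of Gem no support. Outside the count of 1 probe set per gene, 1 other probe set each of Spry4 and Adcy7 was called at 3 weeks. Leaving out any single array of the cohort ended the calls of Pde3b (adjusted p = 0.0529 to 0.174) and Plcb3 (0.0611 to 0.124). Crtc1 lost its call without VP16-CREB replicate 2 or 3 or any control (0.092 to 0.201), Adcy1 without VP16-CREB replicate 2 or 3 or control replicate 2 (0.0839 to 0.0878), and Rgs10 without VP16-CREB replicate 3 or control replicate 1 or 3 (0.0579 to 0.0773).

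**Figure D4:**
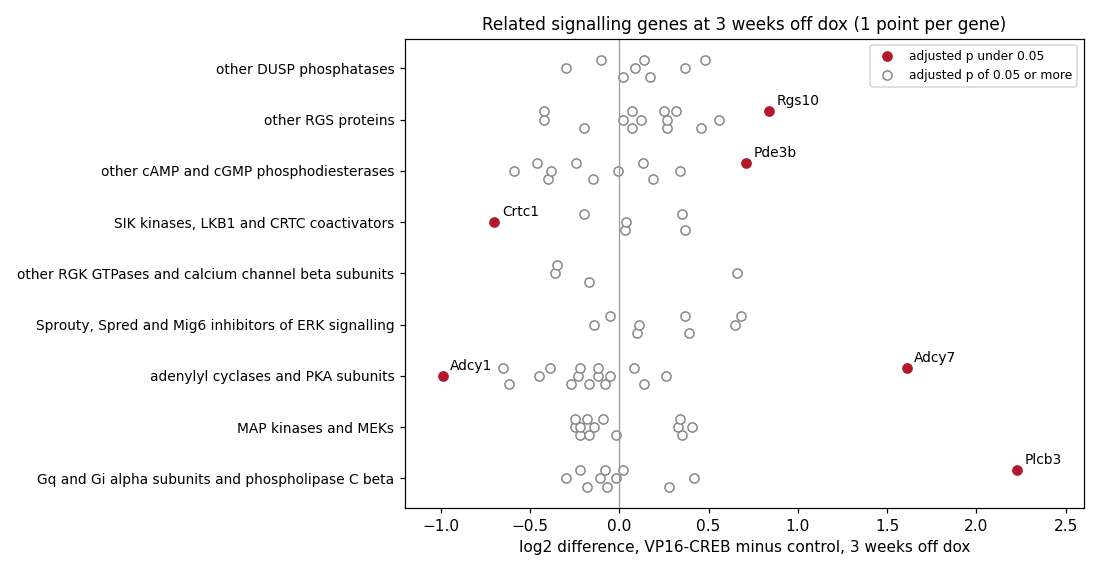
Log2 difference, VP16-CREB minus control littermates at 3 weeks off dox, of the 92 measured genes on 9 lists of related signalling genes, 1 point per gene on the log2(intensity + 10) scale. Filled points passed an adjusted p under 0.05: Rgs10, Pde3b, Adcy7 and Plcb3 were higher, and Crtc1 and Adcy1 lower.

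Markers of cell types moved in the same pools. At 3 weeks off dox all 6 microglia markers rose, and their summed intensity was 21270 to 25170 in VP16-CREB pools and 6494 to 6894 in controls. All 4 dentate granule neuron markers fell, with sums of 3284 to 4313 in VP16-CREB pools and 7853 to 7899 in controls. Of 5 astrocyte markers 2 rose, with sums of 34720 to 41220 in VP16-CREB pools and 18640 to 20740 in controls. Of 5 interneuron markers 1 rose. None of 4 pyramidal neuron markers was called, with sums of 14810 to 16450 in VP16-CREB pools and 18580 to 20980 in controls at 3 weeks, and of 15660 to 16880 in VP16-CREB pools and 20360 to 22360 in controls at 1 week. At 1 week 1 of 6 microglia and 1 of 5 astrocyte markers rose, with sums of 12930 to 16140 in VP16-CREB pools and 7120 to 11300 in controls for microglia. No marker was called in A-CREB mice, where the microglia sum was 9054 to 12890 in A-CREB pools and 7659 to 9516 in controls. The lowest mean of a measured marker over the 16 arrays was 76.7, on the list of striatum and thalamus. The part of these shifts in the values of Gem, Adcy7, Rgs10, Adcy1 and the others was not tested. In such bulk tissue, fewer cells of a type and less RNA per cell cannot be told apart.

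Likeness between genes was measured by Pearson's r over the 16 arrays after subtracting the mean of the cohort's controls, among 12723 genes, as a description that the shared groups and pools shape. The genes most like Gem were Pygl (r = 0.95), which encodes liver glycogen phosphorylase, and Vcam1 (0.91), which encodes a cell adhesion molecule. At 3 weeks Pygl differed by 0.78 log2 (adjusted p = 0.07) and Vcam1 by 0.72 (adjusted p = 0.0397). Among the members, the one most like Gem was Pde4b (0.73), and the least like it was Dusp4 (-0.50). Dusp1 was most like Sh2d3c (0.88) and Ncaph (0.84) among all genes, and like Dusp5 (0.68) among the members. Dusp6 was most like Slc2a3 (0.91), which encodes a neuronal glucose transporter, and Senp2 (0.90), and Pde4b like Tmed3 and Fuca2 (0.90 for both). For Sik1 the closest were Slain2 (0.86) and Ankrd42 (0.84), for Dusp4 Ube2ql1 (0.85) and Hsph1 (0.84), and for Dusp5 Golph3 and Tspan12 (0.85 for both). For Rgs2 they were Tspan6 (0.87) and Nrp2 (0.86), and for Pde4d Becn1 (0.84) and Tmem170 (0.83). Rgs4 had the lowest best match, at 0.80 with Cmss1 and 1700020L24Rik.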

How the data were processed

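Hippocampal RNA of 6 groups was measured on 16 arrays. The authors deposited MAS5 intensities on a linear scale; the software is named in the submitters' processing notes, without a version. On every array the mean without the 2% of values at each end was 500, so arrays had been scaled to a common trimmed mean. MAS5 subtracts a mismatch signal, which makes low intensities noisy. Depth does not apply to arrays, and their number limits the precision.

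From these values, 64 control probe sets were left out, log2(intensity + 10) was taken, and 27044 of 45037 probe sets above 99.1 on at least 2 arrays were kept. Of all, 34945 had 1 symbol, 932 several and 9160 none. All 16 arrays entered 1 limma model (lmFit, eBayes, two-sided; 10 residual and 3.44 prior degrees of freedom) with a coefficient per group. Benjamini-Hochberg adjustment covered all kept probe sets of a comparison. R 4.3.3, limma 3.58.1, Python 3.11.15, pandas 2.3.3 and matplotlib 3.10.9 were used, and the fit was tested on simulated data.

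The members, lists and tests were chosen with earlier results of these data known. Named are all members, the called genes of each related list or else its 2 of highest mean, and the 2 genes most like each member. Alternatives were other pseudocounts, filters, normalizations, variance models and array sets, a replicate block and single arrays left out. Sequences and gene positions are from RefSeq (GRCm38.p6).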

Additional observations from a re-analysis of the deposited data

How the results depend on the processing

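The count of 1 called member probe set at 3 weeks off dox (Gem) was 0 with no filter, with a filter on the mean (where Gem was not tested), with quantile normalization, with arrays centred on their medians and with trended, robust variances, and 0 to 1 with single arrays left out. It was 1 with pseudocounts of 25 and 0, with only the compared arrays and with the replicate block. In the other 4 comparisons it was 0 in every setting run. Over the 90 single differences of members, 8 of 1541 alternative values lost a call, all of Gem, none gained one, and 121 uncalled values, of 50 differences, changed sign, all with sizes of 0.46 log2 or less in the reported fit. Calls over all probe sets at 3 weeks were 1062, and 584 to 854 with single arrays left out. At 1 week they were 64, but 32 with no filter, 0 with only the compared arrays, 23 with the replicate block and 16 to 45 with single arrays left out, where a lone pool is assumed to vary like the other groups. In A-CREB mice they were 0, but 2 with a pseudocount of 25, 3 with none and 0 to 4 with single arrays left out. Without both arrays numbered 3 they were 7 and without both numbered 1 they were 2, settings added after seeing the data. For 3 weeks against 1 week they were 1, but 0 with a pseudocount of 25, no filter, a filter on the mean, centring or the block, 2 with no pseudocount, 21 with quantile normalization, 9 with only the compared arrays and 0 to 5 with single arrays left out. For 3 weeks against A-CREB they were 240, but 138 with no filter, 144 with the block and 114 to 218 with single arrays left out. The cause of these shifts was not tested. The block joined pools by their number alone. In the A-CREB cohort both pools numbered 1 had low Xist signal and both numbered 3 high 18S rRNA signal, so there the block also carries these traits. Same-numbered pools did not all correlate (-0.16, -0.23 and 0.22 at 3 weeks, 0.15 at 1 week, and -0.05, 0.41 and 0.27 in the A-CREB cohort). With the block Gem kept its call at 3 weeks (adjusted p = 0.0427), whereas the related genes Pde3b, Plcb3, Crtc1 and Adcy1 lost theirs (0.0989, 0.0764, 0.106 and 0.0525). With no filter Pde3b, Plcb3 and Crtc1 did (0.111, 0.064 and 0.117), as did Pde3b with centring (0.0884) and Crtc1 with no pseudocount (0.0523). The dim probe sets of Sik1, Gem, Rgs2, Pde4b, Pde4d and Plcb3 limit what can be said of these transcripts.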
